A study of Drosophila melanogaster with 6 samples.

Results

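Oskar, Vasa, the Piwi proteins and their partners make up the machinery of the Drosophila germ line, and this account covers the transcripts of 10 such genes in sage mutant and wild type embryos. The genes were chosen by name as 6 maternal germ plasm genes (osk, nos, vas, exu, pgc and gcl) and 4 genes of the piRNA pathway (aub, AGO3, piwi and tej), and every probe set that the array annotation gives to 1 of them alone was taken. 8 of the 10 genes were measured this way, by 11 probe sets, out of 11981 genes named by 13646 probe sets. No probe set names nos or pgc alone in the annotation used here, and 1 further probe set, which names vas together with wwk, was not used. 3 samples were sage mutants and 3 were of Oregon R, a laboratory wild type strain, matched to the mutants in age and handled alike. RNA came from Drosophila melanogaster embryos of stages 11 to 16, collected and aged at 25 degrees and sorted on a COPAS biosorter, an instrument that sorts whole embryos, and each sample gave 1 Affymetrix array of the 3′ labelling kind. The series asks for the targets of Sage, a bHLH factor known from the salivary gland of the embryo. The sources used here name neither the sage allele, nor the strain background of the mutants, nor the genotype of their mothers, so loss of sage and any strain difference cannot be told apart.

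In Drosophila the germ line is set aside by germ plasm, a cytoplasm rich in RNA and protein that the mother assembles at the posterior pole of the egg. Oskar protein nucleates it, and the cells that bud off there, the pole cells, become the germ cells that are gathered in the gonads by the end of the stages sampled here. piRNAs are small RNAs bound by Piwi-family Argonaute proteins, and they silence transposons in the germ line. Most RNAs for this machinery are laid down in the egg during oogenesis, and many maternal RNAs are cleared from the body of the embryo within the first hours, in part through the RNA-binding protein Smaug.

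The arrays had median signals between 5.89 and 6.01 on the log2 scale, and their number limits the precision. sage itself had 5.28, 5.44 and 5.12 in sage mutant replicates 1 to 3, against 8.21, 8.61 and 7.93 in wild type replicates 1 to 3, a log2 difference of −2.97 (SE 0.19, limma adjusted p = 0.00125). The 5′ minus 3′ signal difference of 5 control transcripts was lower in the mutants, at −3.68 ± 0.61 in sage mutants and −1.84 ± 0.08 in wild type (SD, n = 3 each). Its part in the differences below was not tested, beyond a fit that holds it as a covariate. Wild type replicate 2 correlated least with its own group, at 0.977 across probe sets, against 0.985 to 0.993 for the other 5 arrays. Wild type replicate 3 stood apart in AGO3, tej, piwi and many other piRNA and maternal genes, as set out below, and values that rest on it are given with and without it. Markers of late embryonic tissue were present, such as the muscle gene Mp20 at 11.36 or above on every array and the glial gene repo at 9.1 or above. To give a scale for dim signals, 15 measured genes of the ovarian follicle cells and eggshell, tissues an embryo lacks, lay between 3.97 and 6.58 on all arrays. Levels of different probe sets cannot be ranked, since each has its own response.

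None of the 11 probe sets passed the test at a limma adjusted p under 0.05, against 4.03% of the 18769 probe sets tested, with 2.10% higher and 1.93% lower in sage mutants. At an unadjusted p under 0.05 there was 1 of the 11, the brightest probe set of osk, against 18.7% of all probe sets, with 9.25% higher and 9.44% lower. That probe set was also the only one of the 11 whose groups did not overlap, against 24.4% of all probe sets, with 10.3% higher and 14.1% lower. With 11 probe sets these counts lie near the shares of the whole array and show nothing particular to the members. 6 of the 7 germ plasm probe sets and 0 of the 4 piRNA probe sets had a positive difference, sage mutant minus wild type, against 43.4% of all probe sets. The 7 germ plasm probe sets come from 4 genes, with osk and exu counted more than once. Without wild type replicate 3 the counts were 7 of 7 and 2 of 4, against 6248 of the 13646 probe sets naming 1 gene. The medians were then 0.17 and 0.07, against −0.04 over all probe sets. On all 6 arrays median differences were 0.13 over the germ plasm probe sets, −0.20 over the piRNA probe sets and −0.03 over all probe sets. A miss does not show that the groups were alike, and the 95% intervals below, each for 1 probe set alone, give the sizes that remain possible. In whole embryos, fewer cells of a type and less RNA per cell cannot be told apart.

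**Figure D1:**
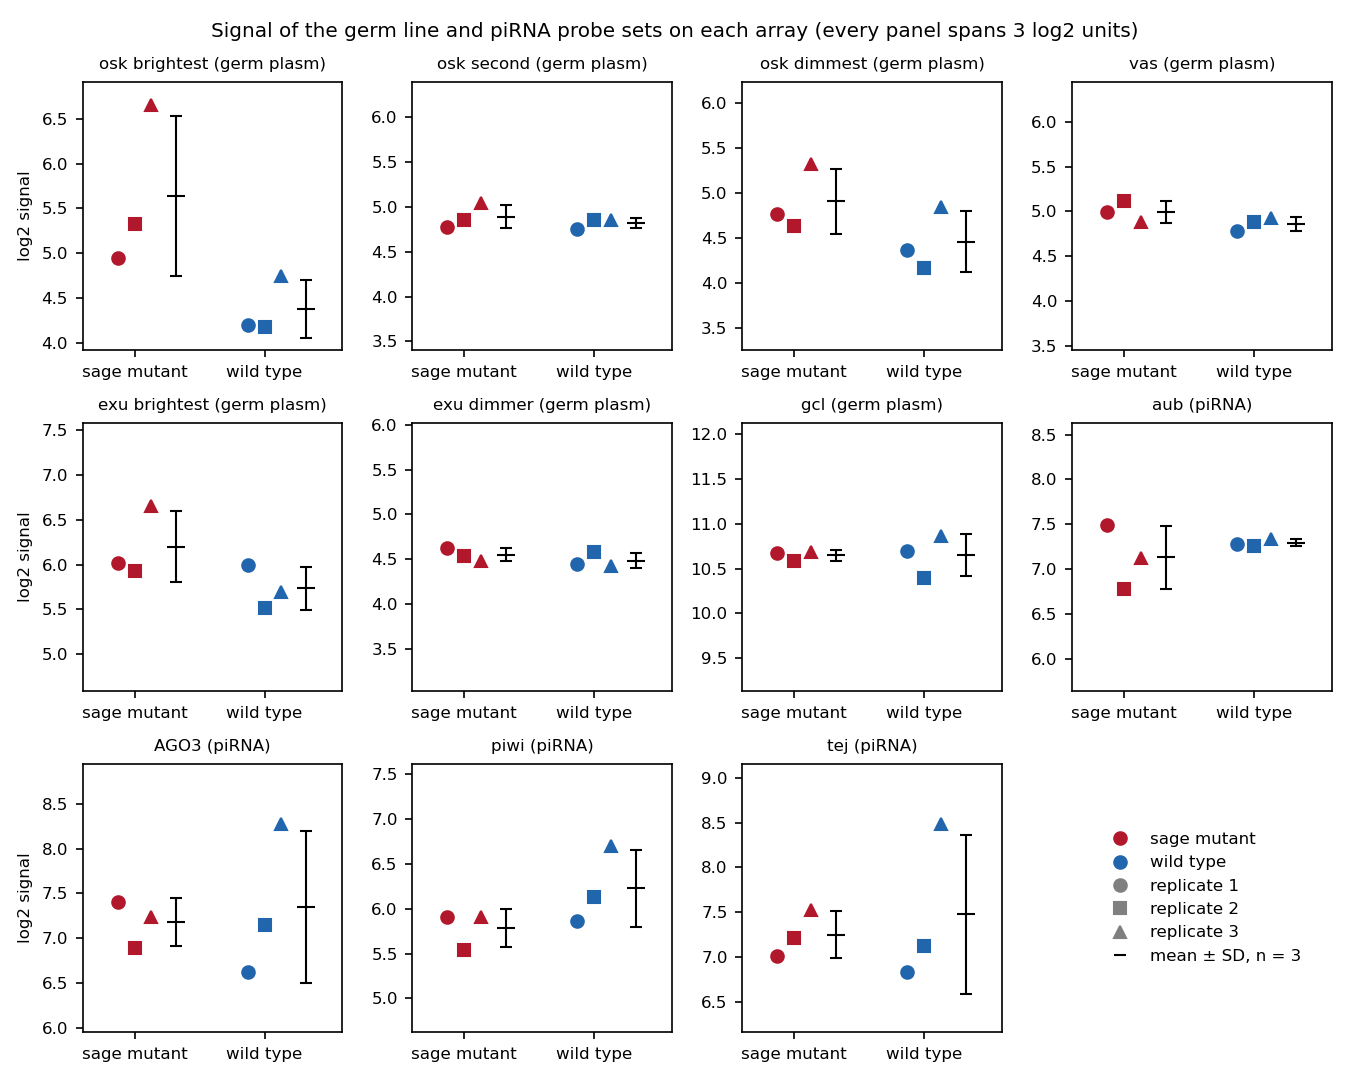
log2 signal (y axis) of the 11 member probe sets in the 3 sage mutant arrays (red, left) and the 3 wild type arrays (blue, right), with symbols for replicates 1 to 3 and black bars for mean ± SD. osk is high in sage mutant replicate 3 at its brightest probe set (6.65), while AGO3 (8.28), piwi (6.70) and tej (8.49) are highest in wild type replicate 3.

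osk (CG10901, chromosome arm 3R) encodes the protein that founds the germ plasm, and it had the largest difference of the members. Its brightest probe set over all 6 arrays had 4.95, 5.32 and 6.65 in sage mutant replicates 1 to 3, against 4.20, 4.18 and 4.75 in wild type replicates 1 to 3. It ranks as brightest only through the mutants, since in wild type its mean of 4.37 lay below those of the other osk probe sets (4.82 and 4.46). All mutant arrays lay above all wild type arrays, but sage mutant replicate 3 stood 1.52 above the mean of the other mutants, and replicate 3 was also the highest in wild type. The log2 difference was 1.27 (SE 0.44, 95% interval 0.22 to 2.32, limma adjusted p = 0.187), or 2.41-fold higher, and did not pass. Without sage mutant replicate 3 it was 0.76 (SE 0.23, limma adjusted p = 0.268). With the replicate number as a block the SE was 0.24 (limma adjusted p = 0.0679). With array weights the probe set passed the test (1.62, SE 0.40, limma adjusted p = 0.0397).

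The other two probe sets of osk gave smaller differences, with the dim signals of sage mutant replicate 3 again on top of the mutants. The second had 4.78, 4.86 and 5.04 in sage mutants against 4.76, 4.85 and 4.85 in wild type, a log2 difference of 0.07 (SE 0.10, 95% interval −0.17 to 0.32). The dimmest over all 6 arrays had 4.77, 4.63 and 5.32 in sage mutants against 4.37, 4.17 and 4.84 in wild type, a log2 difference of 0.45 (SE 0.24, 95% interval −0.13 to 1.02). The groups overlapped at both. Within pairs of the same replicate number the dimmest probe set was higher in the mutant by 0.40, 0.46 and 0.49, and with the replicate block its SE was 0.09 (limma adjusted p = 0.0752). All signals of the 3 probe sets lay within the range of the eggshell genes except 6.65 in sage mutant replicate 3. Where each probe set lies along the transcript was not analysed here.

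exu (CG8994, 2R) encodes Exuperantia, which the oocyte needs to localise bcd RNA. At its brighter probe set it had 6.02, 5.93 and 6.65 in sage mutants against 5.99, 5.52 and 5.69 in wild type, so that sage mutant replicate 3 was again the highest and the groups overlapped at mutant replicate 2 and wild type replicate 1. The log2 difference was 0.47 (SE 0.22, 95% interval −0.06 to 1.0, limma adjusted p = 0.33). It was 0.24 (SE 0.17, limma adjusted p = 0.67) without sage mutant replicate 3, and 1.14 (SE 0.60, limma adjusted p = 0.721) with the 5′ minus 3′ covariate. The dimmer probe set had 4.63, 4.54 and 4.48 in sage mutants against 4.45, 4.58 and 4.42 in wild type, a log2 difference of 0.06 (SE 0.10) that was −0.0033 after centring each array on its median.

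vas (CG46283, 2L) encodes a DEAD-box RNA helicase of germ plasm and nuage, the perinuclear granules where piRNAs are made, and it is a standard marker of embryonic germ cells. Its signal was 4.99, 5.12 and 4.88 in sage mutants against 4.78, 4.88 and 4.93 in wild type. All 6 values lay within the range of the eggshell genes, the groups overlapped, and the log2 difference was 0.13 (SE 0.10, 95% interval −0.11 to 0.38). The probe set was thus no brighter than those of genes from tissues an embryo lacks, although this compares signals of different probes and is a guide only.

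gcl (CG8411, 2R) encodes germ cell-less, which is needed to form pole cells. It was bright on every array, at 10.67, 10.58 and 10.69 in sage mutants against 10.70, 10.40 and 10.86 in wild type. The mutant values lay inside the range of the wild type, with a log2 difference of −0.01 (SE 0.14, 95% interval −0.33 to 0.32).

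**Figure D2:**
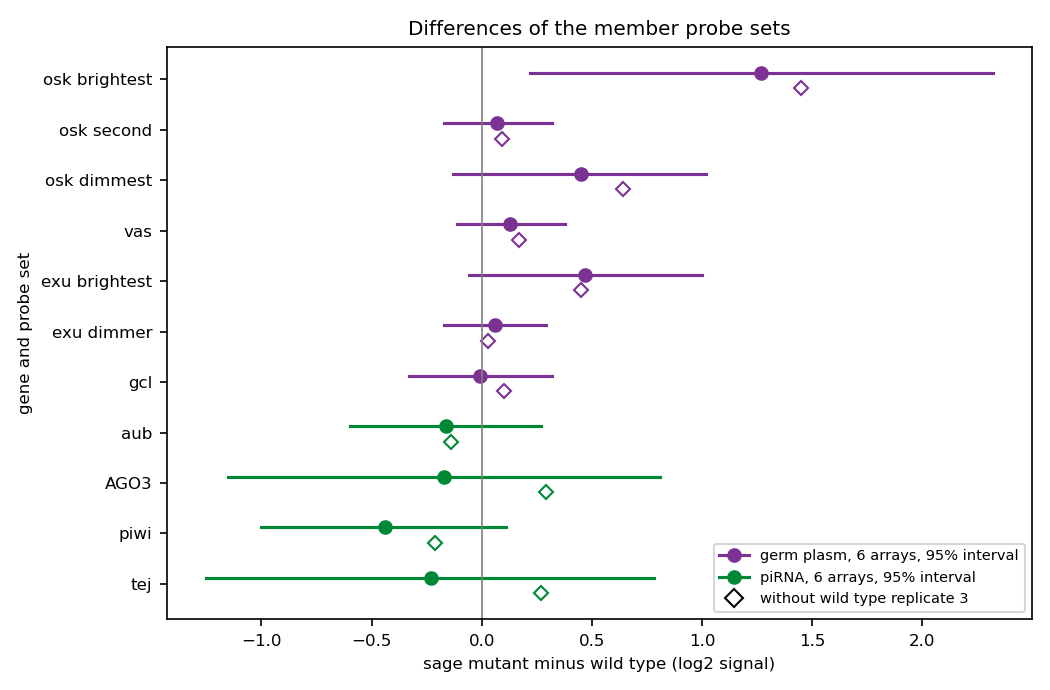
Difference in log2 signal, sage mutant minus wild type (x axis), for the 7 germ plasm probe sets (purple) and the 4 piRNA probe sets (green). Filled points with lines are the estimates and 95% intervals from 6 arrays, and open diamonds are estimates without wild type replicate 3, where AGO3 was 0.29 and tej 0.27.

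The piRNA genes showed no difference between the genotypes that passed the test, and their widest spread was within the wild type. aub (CG6137, 2L) encodes Aubergine, a Piwi-family slicer that loads maternal piRNAs and also enters the germ plasm. It had 7.49, 6.78 and 7.12 in sage mutants against 7.28, 7.26 and 7.34 in wild type, with the mutants on both sides of the tightly grouped wild type. Its log2 difference was −0.16 (SE 0.18, 95% interval −0.60 to 0.27), with 0.01 without sage mutant replicate 2 and −0.34 without sage mutant replicate 1. With the 5′ minus 3′ covariate it was −0.92 (SE 0.43, limma adjusted p = 0.673).

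AGO3 (CG40300, 3L) encodes the slicer that works with Aubergine in the ping-pong cycle of piRNA amplification. It had 7.41, 6.89 and 7.24 in sage mutants against 6.62, 7.15 and 8.28 in wild type. The mutants sat inside the wild type range, which spanned 1.66 between replicates 1 and 3. The log2 difference was −0.17 (SE 0.41, 95% interval −1.15 to 0.81) on all arrays and 0.29 (SE 0.23) without wild type replicate 3.

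tej (CG8589, 2R) encodes Tejas, a Tudor-domain protein of nuage. It had 7.01, 7.21 and 7.53 in sage mutants against 6.83, 7.12 and 8.49 in wild type. Wild type replicate 3 was the highest of the 6 and the other wild type arrays lay near the mutants. The log2 difference was −0.23 (SE 0.42, 95% interval −1.25 to 0.78) on all arrays and 0.27 (SE 0.19) without wild type replicate 3. Replicate 3 was the highest array in both genotypes.

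piwi (CG6122, 2L) encodes the nuclear family member, which acts in germ cells and somatic gonad cells to silence transposons at their loci. It had 5.91, 5.54 and 5.91 in sage mutants against 5.86, 6.13 and 6.70 in wild type. Its log2 difference was −0.44 (SE 0.23, 95% interval −1.0 to 0.11, limma adjusted p = 0.383), and −0.21 (SE 0.17) without wild type replicate 3. The groups overlapped at wild type replicate 1, and 5 of the 6 values lay within the range of the eggshell genes.

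Averaged over the brightest probe set of each measured gene, the 4 germ plasm genes minus the 4 piRNA genes gave −0.30, 0.13 and 0.27 in sage mutants against −0.23, −0.67 and −1.14 in wild type. The mean of this value was 0.04 ± 0.29 in sage mutants and −0.68 ± 0.46 in wild type (SD, n = 3 each), a difference of 0.72 that was 0.49 without wild type replicate 3. The probe set of osk counted as brightest over all arrays through the mutants, at a mean of 5.64 in sage mutants and 4.37 in wild type, while the other two had 4.82 and 4.46 in wild type. When each gene's probe sets were averaged instead, the difference was 0.50. The groups overlapped, at sage mutant replicate 1 and wild type replicate 1. The germ plasm mean alone was 6.87 ± 0.30 in sage mutants and 6.41 ± 0.16 in wild type, and the piRNA mean was 6.84 ± 0.20 in sage mutants and 7.09 ± 0.55 in wild type (SD, n = 3 each). The piRNA mean differed by −0.25 on all arrays and by 0.05 without wild type replicate 3.

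All 4 piRNA members were highest of the wild type in replicate 3, which stood above the mean of the other 2 wild type arrays by 1.4 for AGO3, 1.51 for tej, 0.71 for piwi and 0.07 for aub. Over all tested probe sets this contrast had a median of −0.04 and ran from −1.91 to 2.38, and 0.4% of probe sets were at or above AGO3, 0.261% at or above tej and 4.19% at or above piwi. Of 34 measured piRNA genes, members included, 24 were highest of the wild type in replicate 3, or 70.6%, against 26% of all probe sets, and their median contrast was 0.58. SoYb, spn-E, mael and squ, further piRNA factors singled out after their values were seen, stood 1.56, 1.24, 1.4 and 1.15 above. In some of these genes a low wild type replicate 2 adds to the contrast. Trf2, singled out after its values were seen, had 8.22, 6.39 and 8.83 in wild type replicates 1 to 3. The 30 other piRNA genes had mean deviations from their 6-array means of −0.12, −0.23 and 0.42 on those arrays. No p is given for this contrast, because wild type replicate 3 was singled out after its values were seen.

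**Figure D3:**
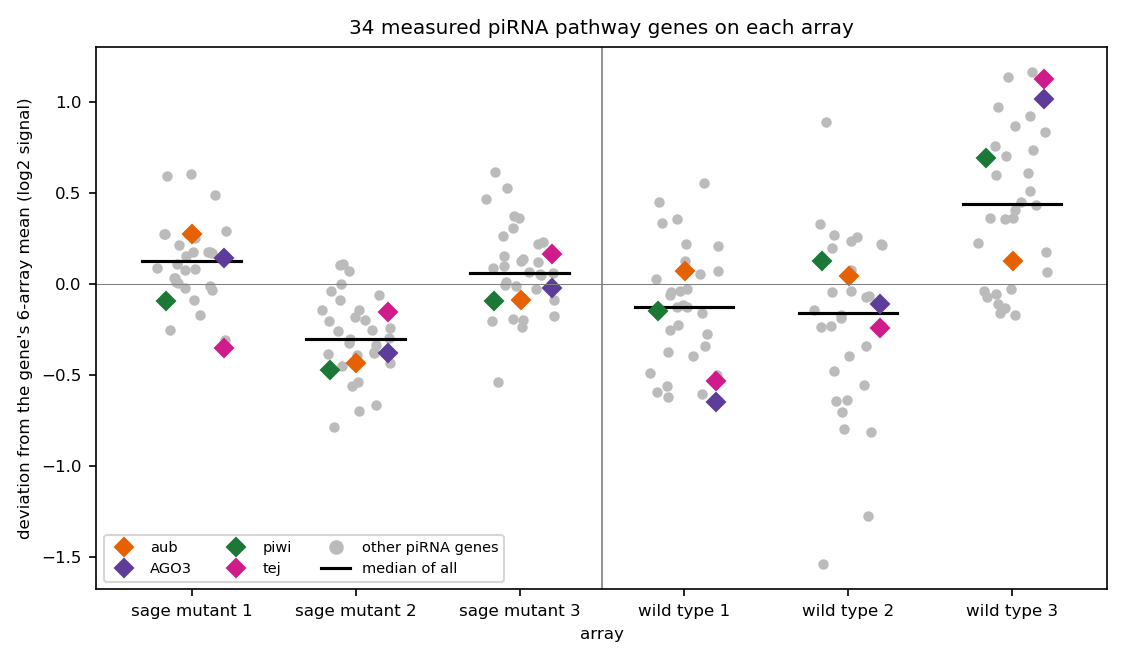
Deviation of each of 34 measured piRNA pathway genes from its own 6-array mean (y axis, log2 signal) on the 3 sage mutant arrays (left) and the 3 wild type arrays (right). Diamonds are the 4 members, grey dots the other 30 genes and black lines medians. Most genes lie high in wild type replicate 3 and low in sage mutant replicate 2. There 30 of the 34 had their lowest mutant value, against 5141 of the 13646 probe sets naming 1 gene. The low mutant replicate 2 is not particular to piRNA genes, since 16 of the 19 other germ plasm genes were also lowest there.

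Some other maternal RNAs were high on the same wild type array, and the neuronal marker elav was low. smg, which encodes Smaug, had 10.79, 10.32 and 10.81 in sage mutants against 9.81, 9.72 and 11.60 in wild type. bcd, the maternal anterior determinant, had 8.6, 8.06 and 8.72 in sage mutants against 7.23, 7.82 and 9.56 in wild type at its brighter probe set. elav, which marks differentiated neurons, had 11.15, 10.44 and 11.06 in sage mutants against 10.83, 10.53 and 8.84 in wild type. Wild type replicate 3 thus stood 1.84 above the mean of the other wild type arrays for smg, 2.04 above for bcd and 1.84 below for elav. Of all 18769 probe sets, 12 were at or above smg in this contrast, 4 at or above bcd and 2 at or below elav, each count including the named gene. These 3 genes were singled out after their values were seen, and whether they share a source with the values of the members was not tested. Of the 13 measured egg activation and maternal cell cycle genes, smg and bcd included, 8 were highest of the wild type in replicate 3. This is 61.5%, against 26% of all probe sets. Their mean deviations from their 6-array means were −0.59, −0.28 and 0.46 in wild type replicates 1 to 3. Not all of them were high there, since alphaTub67C, png and gnu had −0.27, −0.21 and −0.2 in this contrast. The 8 late embryo markers, elav included, had mean deviations of 0.42, 0.39 and −0.05 in wild type replicates 1 to 3, lowest in replicate 3.

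Across the lists of related genes, the 13 measured genes of egg activation and the maternal cell cycle had mean deviations from their 6-array means of 0.11, −0.10 and 0.40 in sage mutants against −0.59, −0.28 and 0.46 in wild type, with replicate 3 highest in both. The 8 measured early zygotic genes of the blastoderm, a stage before those sampled, had 0.31, −0.38 and 0.03 in sage mutants against 0.23, −0.09 and −0.10 in wild type, and 5 of the 8 lay within the range of the eggshell genes on every array. The 15 eggshell genes themselves deviated by no more than 0.10 from their means on any array. The 7 measured somatic gonad markers had 0.19, −0.39 and −0.08 in sage mutants against 0.37, −0.16 and 0.07 in wild type, with 0 of 7 highest of the wild type in replicate 3. Wild type replicate 1 was highest for that list, and the defining marker tj was within the range of the eggshell genes on all 6 arrays.

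**Figure D4:**
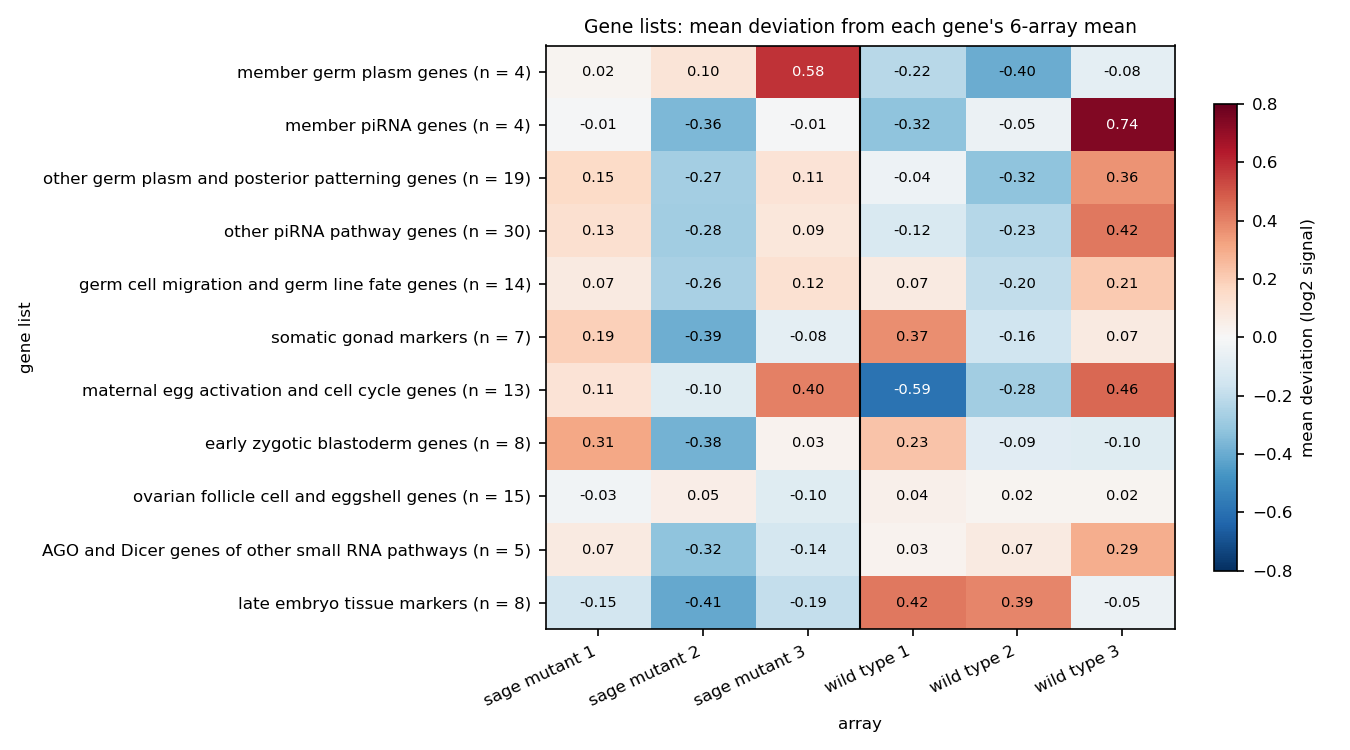
Mean deviation of each gene list from its genes' 6-array means (colour and printed value, log2 signal), with the 3 sage mutant arrays left and the 3 wild type arrays right. The 4 piRNA members reach 0.74 and the maternal egg activation list 0.46 in wild type replicate 3, and the 4 germ plasm members reach 0.58 in sage mutant replicate 3.

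Among the 30 other piRNA genes measured of 33 listed, 2 of 32 probe sets fell and none rose in sage mutants, against 1.93% lower and 2.10% higher over all probe sets. With only the brightest probe set of each gene 1 fell, and without sage mutant replicate 2 or 3, or wild type replicate 1 or 3, none passed (limma, 0 of 32). Hen1 encodes the methyltransferase that methylates the 3′ ends of piRNAs and siRNAs. It had 5.29, 4.76 and 5.0 in sage mutants against 5.88, 6.44 and 5.91 in wild type, and the groups did not overlap. The log2 difference was −1.06 (SE 0.20, limma adjusted p = 0.0432), or 2.08-fold lower. It passed neither with the replicate block (limma adjusted p = 0.0865), nor after quantile normalization (0.0624), nor without wild type replicate 1 (0.0998) or 3 (0.0828), nor without sage mutant replicate 2 (0.163) or 3 (0.182).

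tapas, which encodes another Tudor-domain protein of the pathway, fell at its dimmer probe set, with 5.46, 5.32 and 5.64 in sage mutants against 6.12, 6.05 and 6.42 in wild type. The log2 difference there was −0.72 (SE 0.14, limma adjusted p = 0.045), and its brighter probe set had −0.36 (SE 0.17, limma adjusted p = 0.341). The dimmer probe set did not pass without any 1 of the mutant replicates (limma adjusted p = 0.085, 0.17 and 0.119 without replicates 1, 2 and 3), nor without wild type replicate 1 (0.123) or 3 (0.0988). Both called probe sets had every signal within the range of the eggshell genes. The control 5′ minus 3′ value, which differed by −1.83 between sage mutants and wild type, separates the groups completely. With it as a covariate Hen1 had −1.51 (SE 0.58, limma adjusted p = 0.561) and tapas −0.60 (SE 0.43, limma adjusted p = 0.851), in a fit that called no probe set, sage included. With 1 probe set for each gene, the brightest, the 30 had a median difference of −0.04, and 0.14 without wild type replicate 3.

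None of 19 other germ plasm and posterior patterning genes measured of 26 listed passed the test. By their brightest probe set 3 had an unadjusted p under 0.05, against 18.7% of all probe sets. brat, which represses translation with Nanos and Pumilio, had 8.41, 7.91 and 8.51 in sage mutants against 8.79, 9.30 and 9.26 in wild type (log2 difference −0.84, SE 0.21, limma adjusted p = 0.0882). grk, the signal from the oocyte to the follicle cells, had a log2 difference of −0.30 (SE 0.11, limma adjusted p = 0.195). The median of the 19 was −0.14.

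None of the 14 measured genes of germ cell migration and fate passed either, and none reached an unadjusted p under 0.05, against 18.7% of all probe sets. Those with the smallest p were bol, a meiotic RNA-binding protein gene, at −0.83 (SE 0.40, limma adjusted p = 0.335) at the brightest of its 3 probe sets, and otu, a gene of oogenesis, at 0.45 (SE 0.22, limma adjusted p = 0.35). Without wild type replicate 2, bol passed (−1.27, SE 0.24, limma adjusted p = 0.0377), as did 1 of the 3 probe sets of Sxl, the sex determination switch, named after its value was seen (−1.43, SE 0.19, limma adjusted p = 0.0151). otu was highest in sage mutant replicate 3, at 5.01, against 4.44 and 4.15 in the other mutants and 4.11, 3.94 and 4.20 in wild type, and its difference was 0.21 (SE 0.15) without that array.

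Of the 13 maternal genes of egg activation and the cell cycle, none passed and 1 reached an unadjusted p under 0.05, against 18.7% of all probe sets. This was sra, a calcineurin regulator of egg activation, with a log2 difference of 0.70 (SE 0.22, limma adjusted p = 0.158). gnu, a subunit of the kinase complex that licenses maternal translation, had 5.91, 5.63 and 6.87 in sage mutants against 5.54, 5.74 and 5.44 in wild type (log2 difference 0.56, SE 0.31, limma adjusted p = 0.412), and without sage mutant replicate 3 the difference was 0.20 (SE 0.15). 11 of the 13 were highest of the mutants in replicate 3, against 23.4% of all probe sets. In wild type 8 of the 13 were highest in replicate 3, against 26% of all probe sets. This list shares bcd, smg, swa and wisp with the germ plasm list and twe with the germ cell list.

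No gene passed among the 7 somatic gonad markers, the 8 blastoderm genes, the 15 eggshell genes or the 5 measured Argonaute and Dicer pathway genes of miRNA and siRNA biogenesis. At an unadjusted p under 0.05 these lists had 0, 0, 1 and 2 genes, against 18.7% of all probe sets. Without wild type replicate 2 the somatic gonad marker zfh1, named after its value was seen, passed (−1.18, SE 0.22, limma adjusted p = 0.0368). The lowest p-values belonged to tj and eya (log2 differences −0.14 and −0.38), sc and bnk (−0.24 and 0.15), Yp3 and Cp18 (−0.32 and −0.17), and r2d2 and drosha (−0.62 and −0.43), with limma adjusted p-values from 0.165 to 0.784. Among 8 late embryo markers, sage and nrv2, a sodium pump subunit, fell (nrv2 −1.66, SE 0.14, limma adjusted p = 0.0036), and Mp20 rose (1.20, SE 0.22, limma adjusted p = 0.0371). Mp20 did not pass without sage mutant replicate 2 (limma adjusted p = 0.144) or 3 (0.163), nor without wild type replicate 1 (0.127) or 3 (0.0866).

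Likeness to osk was taken from its brightest probe set, which ranks so only through the mutants. The genes whose 6 signals most resembled it, among 11980 others at their brightest probe sets, were yl (Pearson r = 0.979), PGRP-LB (0.976) and Hpd (0.976). yl, the receptor that takes up yolk proteins, had 5.66, 5.80 and 6.26 in sage mutants against 5.48, 5.32 and 5.48 in wild type. For vas the closest were CG14540 (0.983), CG18404 (0.983) and the odorant receptor gene Or85a (0.982), which spanned from 3.64 to 3.78 over the 6 arrays. With 6 arrays and this many genes such values are a description only, and none of these 6 genes passed the test (limma adjusted p from 0.193 to 0.798).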

How the data were processed

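The authors deposited 1 log2 signal per probe set and array, made with RMA and Partek per the submitters' processing notes, which give no versions. RMA by default adjusts for background, equalises the arrays' distributions and summarises the probes on the log2 scale. Of 18952 rows, 183 control probe sets were left out, leaving 18769. Gene names came from the platform annotation, updated through the RefSeq table (Release 6 plus ISO1 MT). 13646 probe sets named 1 gene, 402 several and 4721 none here.

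limma 3.58.1 in R 4.3.3 (lmFit, eBayes, group as the only term) was fitted to all 18769 with Benjamini-Hochberg adjustment at 0.05, and adjusted p-values are limma's throughout. The main fit was tested on simulated arrays with independent noise and changes of known size. The block, covariate, array weights and list steps were not tested this way. Members, lists and tests were chosen with earlier results of these data known, so no list test is given. Named genes were sage, the members, called genes of each list or else the 2 with the smallest p, and the 3 closest to osk and to vas. The labels do not say whether replicates came from separate collections. If not, the p-values reflect only technical spread.

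Deviations from group means correlated at 0.171, 0.28 and 0.313 for arrays with the same replicate number in their titles. Arrays with different numbers had −0.301 to 0.14. Deviations within a group sum to 0, so positive matched values push the others down, and the gap overstates the evidence. On this limited basis the numbers were taken to pair the arrays. The fit with this replicate block was run beside the main one. Alternatives were quantile normalization, median centring, 2 filters on low signal, a trended robust variance, array weights, the block, the 5′ minus 3′ covariate, 1 probe set per gene and leaving out each array.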

Additional observations from a re-analysis of the deposited data

How the results depend on the processing

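With 3 arrays per group, low signals limit the members, as does wild type replicate 3, which stood apart in 3 of the 4 piRNA members. That array was singled out by those values. Across all probe sets it correlated with its group at 0.985, against 0.977 for wild type replicate 2. Detection above background was not assessed. The count of called probe sets was 757. It was 2737 with array weights and 0 with the 5′ minus 3′ covariate (limma). It was 134 to 1111 with 1 array left out, with 135, 134, 212 and 276 without sage mutant replicates 2 and 3 and wild type replicates 1 and 3. With the replicate block it was 641. The members called were 0 under every setting except 1, osk, with array weights, and remained 0 with each array left out. The genes called in the 9 other lists were 5 of 113 measured, sage itself among them, against 4.03% of all probe sets. They were 12 under array weights, 0 under the covariate and 2 to 9 with 1 array left out. sage had −2.97 under the covariate (SE 0.57, limma adjusted p = 0.275). The germ plasm minus piRNA value of 0.72 lay between 0.50 and 0.86 under the other settings and between 0.49 and 0.94 with 1 array left out. Of 152 member differences under other settings, 12 changed sign, none of them past the threshold in any of these. gcl was 0.0052 after quantile normalization, and −0.13 to 0.10 with 1 array left out, with 0.03, 0.02 and 0.10 without sage mutant replicate 2, wild type replicate 1 and wild type replicate 3. The dimmer exu probe set was −0.0033 after centring and −0.12 with the covariate. AGO3 was 0.26 with array weights and 0.29 without wild type replicate 3 (−0.54 to 0.29 with 1 array left out), and tej was 0.17 with array weights, 0.35 with the covariate and 0.27 without wild type replicate 3 (−0.56 to 0.27). aub was 0.012 without sage mutant replicate 2 (−0.34 to 0.012). The cause was not tested for these, apart from the arrays left out. The covariate gave osk a log2 difference of 3.45 (SE 0.87). The replicate block changed no member's call, and ended that of Hen1.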
